A study of Mus musculus with 16 samples.

Results

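Interferon-stimulated effector genes encode the proteins that cells make after an interferon signal: sensors of foreign nucleic acids, enzymes that degrade viral RNA or block translation, GTPases that trap viral particles, and the ubiquitin-like ISG15 system. A set of 42 such genes was chosen by symbol, and each was read in bone marrow dendritic cell progenitors of mice with and without a mammary tumor. All 42 were found among the 31093 gene symbols on the array, on 62 probes, and each gene is given by its probe with the highest mean. Of these, 41 were tested, beside 21911 tested symbols in all. Ifit1 was not tested, since its signal was well above background on 2 of 16 arrays.

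Total RNA was measured on 16 one-color arrays in 4 groups of 4, numbered 2 to 5 in each. Macrophage-dendritic cell progenitors (MDPs) can become monocytes, macrophages or dendritic cells, and common dendritic cell progenitors (CDPs) are a later stage limited to dendritic cells. Either was sorted, after lineage depletion, from the bone marrow of female C57/Bl6 mice, labelled Normal when they were age-matched and without tumor, and PyMT when a PyMT B6 tumor in the mammary fat had reached 1.5 cm. PyMT B6 is a single cell line derived from the MMTV-PyMT model, in which a mammary promoter drives polyoma middle T antigen, and it was implanted here in otherwise normal hosts. Each sample came from 2 mice, so that p-values measure the spread between such pools.

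Type I interferons bind a receptor of the chains IFNAR1 and IFNAR2, whose kinases JAK1 and TYK2 set off signaling to the nucleus. There a complex that holds STAT2 and IRF9 binds the interferon-stimulated response element (ISRE) in the promoters of target genes. Many of the target genes also have a basal level in uninfected cells, and stem and progenitor cells of the bone marrow are known to hold part of this program without infection.

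The promoters of these genes were searched for this element. RefSeq windows on build GRCm38.p6, from 250 bases before to 50 bases after the start, were held for 30 of the 42 genes (39 promoters). The ISRE was searched on both strands as GAAA, any 2 bases, GAAA. It was found in the promoters of 16 of the 30 genes (53.33%), against 3.99% of the 27025 genes with such a window. The following stretches belong to 6 members with the element among those on which the results turn. They are given 5′ to 3′ on the gene's own strand, with the ISRE letters in capitals, and a match on the opposite strand reads TTTC, 2 bases, TTTC.
Ifit3, chr19:34583361-34583428, plus strand: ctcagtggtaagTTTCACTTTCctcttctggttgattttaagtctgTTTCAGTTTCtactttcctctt
Isg15, chr4:156200863-156200908, minus strand: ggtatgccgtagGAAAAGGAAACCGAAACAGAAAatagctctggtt
Bst2, chr8:71537575-71537614, minus strand: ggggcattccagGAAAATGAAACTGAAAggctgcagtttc
Oas3, chr5:120777713-120777746, minus strand: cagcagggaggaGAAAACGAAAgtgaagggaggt
Ifi203, chr1:173942506-173942539, minus strand: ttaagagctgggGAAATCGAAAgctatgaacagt
Gbp3, chr3:142559987-142560026, plus strand: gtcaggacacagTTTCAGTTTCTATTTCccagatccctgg
Isg15 carried 3 overlapping matches, of which the first began at -78 from the start, and Ifit3, Bst2 and Gbp3 carried 2 each. In Bst2 the first match began at -130. Of the 4 members that fell in CDPs with a tumor, Pml had no such letters in its window, and no window was held for Usp18. Gbp3 is shown because its promoter holds the element although its signal, unlike that of most members, was lower in CDPs than in MDPs.

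Signals are log2 processed intensities minus the array's 75th percentile, so that 0 is the level of that percentile and levels of different genes are not comparable. Of all probes, 58.99% to 71.56% were well above background on an array, and no probe was saturated. The first principal component held 49.39% of the variance, of which 93.92% lay between the 4 slides, so values with slide as a block or within a slide are given beside the main ones. Tumor-bearing MDPs had no array on slide 4 and tumor-bearing CDPs none on slide 1, while the tumor-free groups had 1 on each. Kit, Flt3, Csf1r and Cx3cr1, which mark these progenitors, were well above background on all 16 arrays, and Kit was higher in MDPs (1.31 to 1.82) than in CDPs (-2.68 to -0.66). A difference was called at a Benjamini-Hochberg FDR under 0.05 over all 27433 tested probes, by limma, with a fold above 1.5. In bulk RNA, fewer cells of a type and less RNA per cell cannot be told apart.

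In CDPs, most of the effector genes were lower in tumor-bearing than in tumor-free mice. The fitted log2 difference was below 0 for 37 of the 41 tested genes, with a median of -0.57, while the median over all probes was 0.077 and 42.3% of all probes were below 0. Usp18, Pml, Ifi203 and Bst2 fell past the threshold, which is 4 of 41 members against 0.988% of all probes called lower. No member was called higher, against 0.802% of all probes. An unadjusted p under 0.05 was reached by 18 members, of which 2 were higher with a tumor, against 13.7% of all probes.

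Counts of separated groups and of slides gave the same direction. In 14 members every tumor-bearing CDP array was below every tumor-free one, against 5.33% of all probes, and in 1 member (Ifitm3) every one was above, against 5.8%. With the slide as a block, 9 members were called lower, against 2.36% of all probes: Ifit3, Isg15, Mx2, Oas3 and Samd9l beside the other 4. Within slides the median member difference was -0.74 on slide 2, -0.42 on slide 3 and -0.50 on slide 4. In the fit to the CDP arrays alone no member was called, against 0.2% of all probes (55 of 27433).

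In MDPs, the median difference was close to that in CDPs, and no member was called. The difference was below 0 for 37 of 41 genes with a median of -0.60, while the median of all probes was -0.115 and 60.2% of all probes were below 0. Of the 18 other tested probes of members, 13 had the sign of the used probe in MDPs and 18 in CDPs. The background here was 0.0292% of all probes called lower and 0.0328% called higher. Unadjusted p-values under 0.05 were found for 21 members, against 10.4% of all probes. The groups did not overlap for 12 members that were lower in tumor-bearing mice, against 2.42% of all probes, and for 2 that were higher (Ifitm3 and Tor3a), against 2.8%. Within slides the members' median was -0.54 on slide 1, -0.66 on slide 2 and -0.47 on slide 3, and with slide as a block no member was called.

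**Figure D1:**
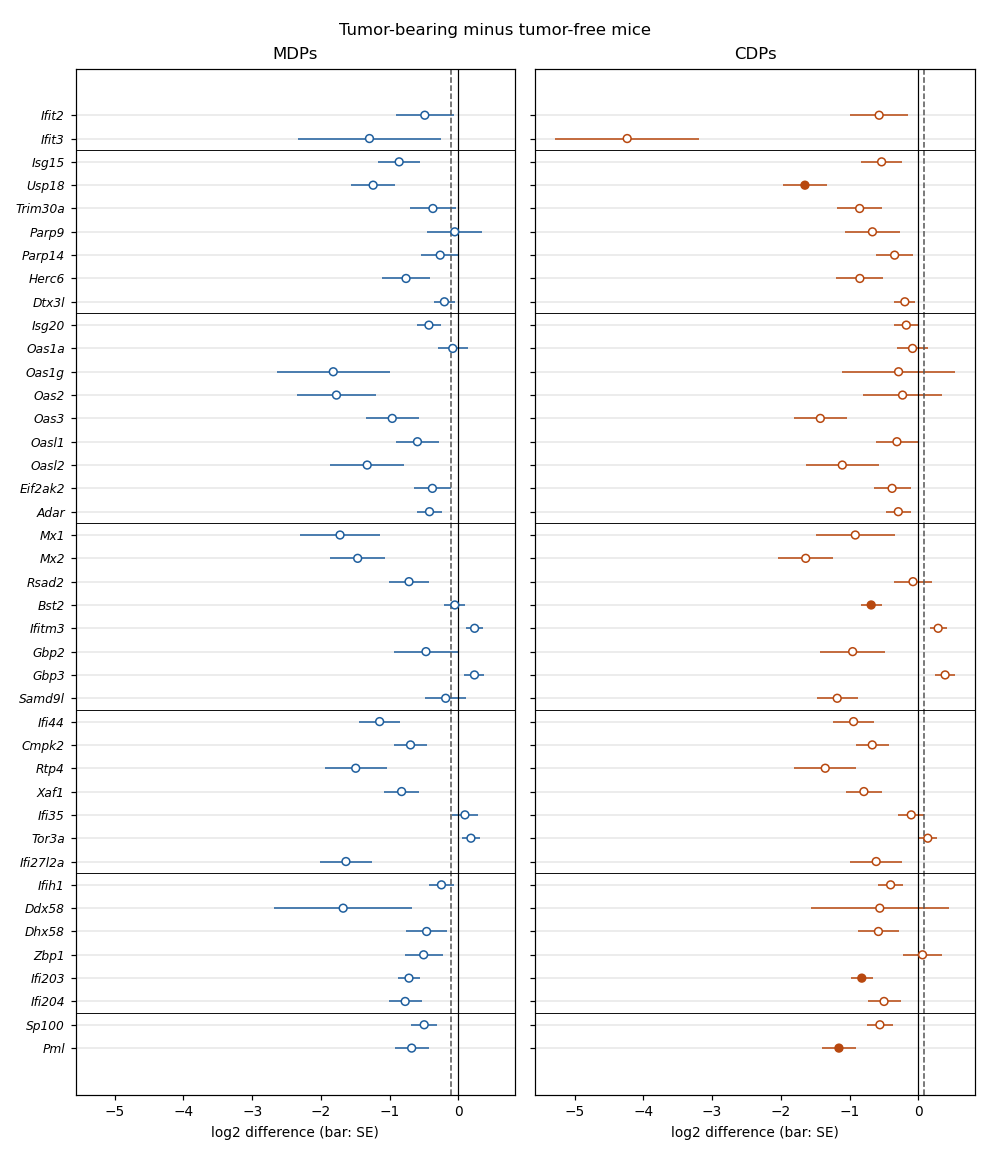
Fitted log2 difference (x axis, bar: SE) between tumor-bearing and tumor-free mice for each of the 41 tested genes (y axis, in blocks by role), in MDPs on the left and CDPs on the right, with filled points for called genes and a dashed line at the median of all probes. The points lie mostly left of 0 in both panels, the 4 filled ones (Usp18, Bst2, Ifi203, Pml) are all in CDPs, and Ifit3 in MDPs rests on arrays that were mostly not well above background.

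The MDP and CDP comparisons share no arrays. The sample labels do not say whether MDPs and CDPs came from the same mice, so the comparisons may not be independent. Of the 41 members, 36 (87.8%) were lower in tumor-bearing mice in both progenitors, against 28.1% of all probes, and Ifitm3, Gbp3 and Tor3a were higher in both. The other Tor3a probe was below 0 in MDPs (-0.33). The difference between the tumor effects, CDP minus MDP, called no member, against 0.0109% of all probes called lower and 0.00365% higher, and its median over members was -0.0013. It was below 0 in 21 members and above 0 in 20, while the median over all probes was 0.151 and 38.3% of all probes were below 0. This split depended on the scaling. With quantile normalization 28 members were below 0 and 13 above, with a median of -0.127 against -0.004 over all probes. The sign of 17 of the 41 members turned under at least 1 of 5 other settings. The lowest adjusted p by limma was 0.749 over the members, and with a median SE of 0.42 on the log2 scale this difference was measured less precisely than either tumor effect.

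**Figure D2:**
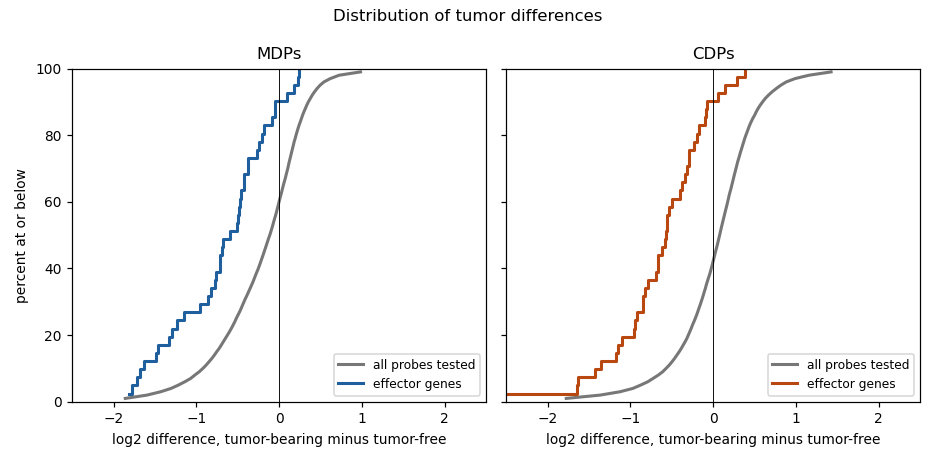
Cumulative percent (y axis) of genes with a log2 difference, tumor-bearing minus tumor-free, at or below the value on the x axis, for the 41 effector genes (steps) and all tested probes (gray), in MDPs and CDPs. The members' curves lie left of the gray ones, with medians of -0.60 against -0.115 in MDPs and -0.57 against 0.077 in CDPs, and Ifit3 in CDPs lies off the axis at -4.23.

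By array, the median deviation of the members from their mean over all arrays, minus that of all probes, was 0.299 to 0.754 in tumor-free CDPs and -0.493 to 0.109 in tumor-bearing CDPs. In MDPs it was -0.195 to 0.244 without a tumor and -0.824 to -0.212 with one. In either progenitor the ranges of tumor-free and tumor-bearing mice therefore did not overlap. Among tumor-bearing CDPs replicate 3 was lowest in its group for 25 of the 41 tested members, and without it 1 member, Usp18, was called.

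**Figure D3:**
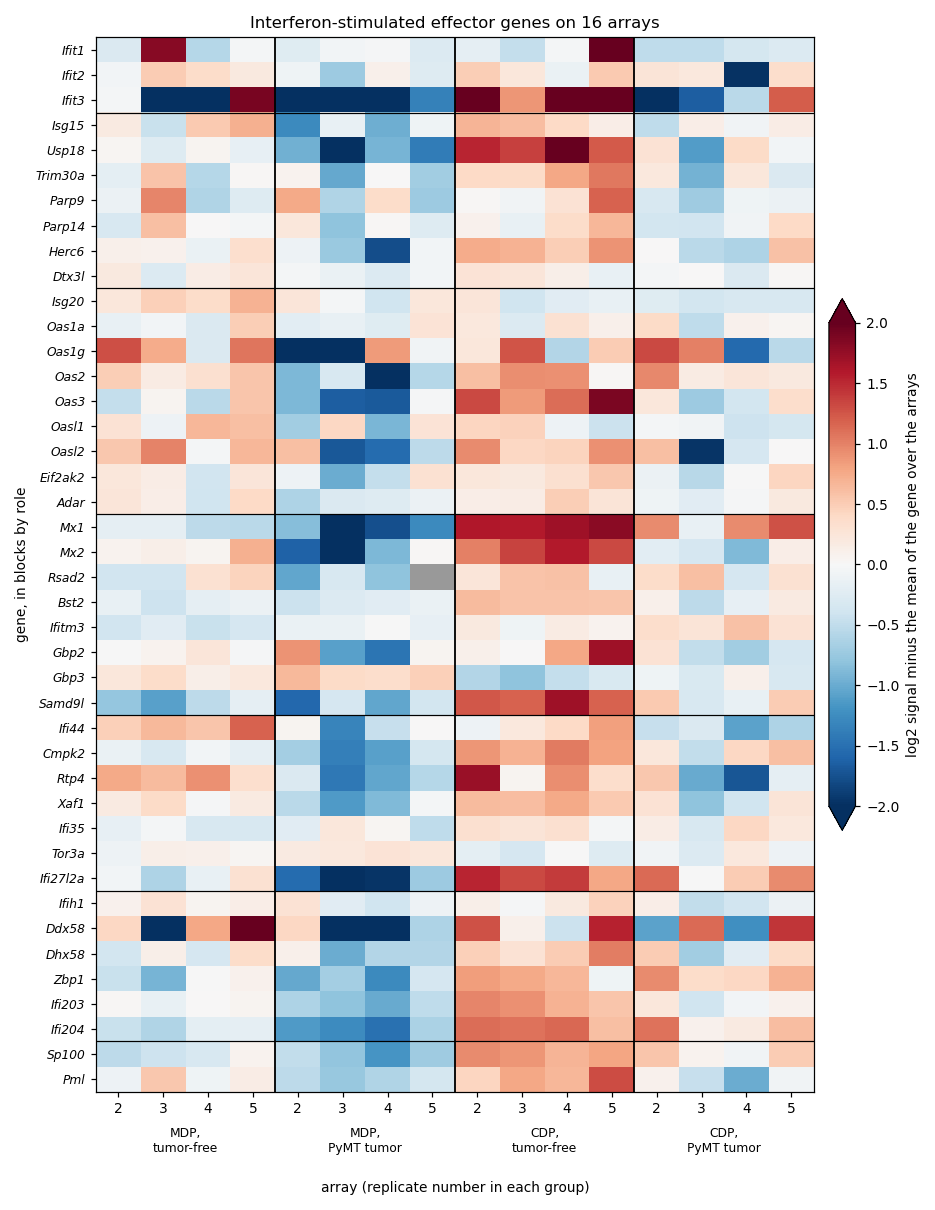
Log2 signal of the 42 genes (y axis, blocks by role) on the 16 arrays (x axis, by group and replicate number), as the deviation from each gene's mean over the arrays, with the color scale ending at -2 and 2 and gray for a missing value. Most rows are red in tumor-free CDPs and blue in tumor-bearing MDPs, while Gbp3 is blue in tumor-free CDPs.

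The ISG15 system and the ubiquitin ligases and PARP enzymes linked to it held the called member with the greatest change. Usp18 removes ISG15 from proteins and also blocks signaling at the IFNAR2 chain. Its signal in CDPs of tumor-free mice was 0.91, 0.76, 1.39 and 0.62 on replicates 2 to 5. Tumor-bearing mice gave -0.32, -1.72, -0.22 and -0.66, all below the tumor-free arrays. The difference was -1.65 ± 0.32 (SE, 4 against 4 arrays), a 3.14-fold fall (limma adjusted p = 0.0195, exact two-sided permutation p = 0.0286, the smallest that 70 relabelings allow).

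Usp18 in MDPs was -0.57, -0.86, -0.55 and -0.77 without a tumor and -1.57, -2.59, -1.54 and -2.01 with one. These groups did not overlap either, and the difference of -1.24 ± 0.32 was not called (adjusted p = 0.24). Its CDP call was lost without tumor-free CDP replicate 2 or 4 (adjusted p = 0.0529 in either case). The used probe lies at chr6:121220874-121220933 on build mm9, the build of all probe positions here.

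Isg15, the ubiquitin-like modifier itself, was -1.26, -1.32, -1.54 and -1.81 in tumor-free CDPs and -2.45, -1.81, -2.02 and -1.79 in tumor-bearing ones. The groups overlapped at their edges, and the difference of -0.53 ± 0.30 was not called (adjusted p = 0.50), though it was -0.72 with the slide as a block (adjusted p = 0.0348). In MDPs the difference was -0.86 ± 0.30 (adjusted p = 0.382). The other Isg15 probe gave -1.18 in CDPs (limma adjusted p = 0.0882) and -1.12 in MDPs (limma adjusted p = 0.283). Neither difference was called. That probe was well above background on 12 arrays, and the used one on all arrays. Trim30a, a ubiquitin ligase that restrains inflammatory signaling, did not overlap between CDP groups, with 0.79 to 1.46 without a tumor and -0.54 to 0.63 with one (difference -0.85 ± 0.33, adjusted p = 0.241). For Herc6, the ligase that attaches ISG15 in mice, the difference was -0.85 ± 0.34 in CDPs and -0.76 ± 0.34 in MDPs. Parp9 and its ubiquitin ligase partner Dtx3l differed by -0.67 ± 0.40 and -0.20 ± 0.15 in CDPs, and Parp14, an ADP-ribosyltransferase, by -0.35 ± 0.27. All 7 genes of this role were below 0 in both progenitors under the main scaling, but Parp9 in MDPs (-0.05) turned above 0 with quantile normalization. The other Dtx3l probes gave -0.07 and 0.05 in MDPs.

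Among the sensors, Ifi203 and Ifi204 belong to the mouse family of HIN-domain proteins that bind DNA. Ifi203 was 3.25, 3.19, 2.98 and 2.83 in tumor-free CDPs and 2.503, 1.88, 2.22 and 2.36 in tumor-bearing ones. All tumor-bearing arrays were lower, and Ifi203 fell 1.77-fold (-0.82 ± 0.16, adjusted p = 0.0234). In MDPs the values were 2.30, 2.13, 2.29 and 2.34 against 1.66, 1.47, 1.27 and 1.77, again with no overlap (-0.72 ± 0.16, adjusted p = 0.169).

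The used Ifi203 probe (chr1:175854206-175854265) and the gene's 3 other probes, which lie together elsewhere on chromosome 1, all had negative differences in CDPs, and the other probes gave -1.29, -1.86 and -1.41. Genes of this family resemble each other, so probes for Ifi203 and Ifi204 may read close relatives. The Ifi203 call was lost without tumor-free CDP replicate 2 or 3 or tumor-bearing replicate 3 or 4 (adjusted p 0.0692 to 0.0775). Ifi204 was 1.32 to 1.88 in tumor-free and 0.80 to 1.81 in tumor-bearing CDPs, which overlapped (-0.50 ± 0.24, adjusted p = 0.386). In MDPs Ifi204 was 0.13 to 0.54 against -0.77 to 0.09, without overlap (-0.78 ± 0.24, adjusted p = 0.324).

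None of the RNA sensors was called. Ifih1, which encodes MDA5 and senses long double-stranded RNA, differed by -0.40 ± 0.18 in CDPs and -0.25 ± 0.18 in MDPs. Dhx58, which encodes LGP2, a regulator of these sensors, differed by -0.58 ± 0.30 and -0.46 ± 0.30. Ddx58, which encodes RIG-I, differed by -0.56 ± 1.01 in CDPs and -1.68 ± 1.01 in MDPs. It was well above background on 3, 1, 3 and 2 of 4 arrays in tumor-free MDPs, tumor-bearing MDPs, tumor-free CDPs and tumor-bearing CDPs. Zbp1, a sensor of Z-form nucleic acids that can start necroptosis, differed by 0.06 ± 0.28 in CDPs, where its sign turned with the slide as a block, and by -0.51 ± 0.28 in MDPs.

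The nuclear body proteins Pml and Sp100 form the bodies named after PML. Pml was -0.41, -0.07, -0.18 and 0.47 in tumor-free CDPs and -0.75, -1.31, -1.84 and -0.92 in tumor-bearing ones. The groups did not overlap, and Pml fell 2.23-fold (-1.16 ± 0.25, adjusted p = 0.031). In MDPs it was -0.95, -0.30, -0.93 and -0.69 against -1.37, -1.59, -1.44 and -1.19, which did not overlap (-0.68 ± 0.25, adjusted p = 0.399). The used Pml probe is at chr9:58066349-58066408, and the gene's other probe gave -1.68 in CDPs (adjusted p = 0.10). The call was lost without any of tumor-free CDP replicates 3, 4 and 5 and tumor-bearing replicates 3 and 4 (adjusted p 0.0575 to 0.10). Sp100 did not overlap in CDPs, at 0.55 to 0.81 against -0.19 to 0.42 (-0.56 ± 0.19, adjusted p = 0.178), and its MDP difference was -0.50 ± 0.19.

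The GTPases and membrane-linked factors divided into members that were lower with a tumor and 2 that were higher. Bst2, also called tetherin, ties budding virus to the membrane and is a marker of plasmacytoid dendritic cells. In tumor-free CDPs it was 1.97, 1.91, 1.91 and 1.89, and in tumor-bearing CDPs 1.44, 0.81, 1.17 and 1.51. The tumor-free arrays had an SD of 0.04 and all lay above the tumor-bearing ones, and Bst2 fell 1.61-fold (-0.69 ± 0.15, adjusted p = 0.038).

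In MDPs Bst2 was 0.93 to 1.21 without and 0.91 to 1.198 with a tumor, which overlapped almost fully (-0.05 ± 0.15, adjusted p = 0.88). The difference between the CDP and MDP effects was -0.63 ± 0.22 and did not pass the test (adjusted p = 0.749). The call in CDPs was lost in 10 of the 16 fits that left out an array: without tumor-free CDP replicate 2, 3, 4 or 5, tumor-bearing CDP replicate 3 or 4, tumor-free MDP replicate 2, 4 or 5, or tumor-bearing MDP replicate 3 (adjusted p 0.0519 to 0.11). The probe is at chr8:74058603-74058662.

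Mx1 and Mx2 encode dynamin-like GTPases that block steps of viral replication. Mx2 in CDPs was -1.16, -0.80, -0.57 and -0.84 without a tumor and -2.36, -2.49, -3.04 and -2.03 with one. The groups were apart, with a difference of -1.64 ± 0.40 that missed the threshold (adjusted p = 0.0542) and passed it with the slide as a block (adjusted p = 0.0266). In MDPs Mx2 was -2.09, -2.03, -2.10 and -1.44 against -3.77, -4.56, -3.06 and -2.14, again apart (-1.47 ± 0.40, adjusted p = 0.262). It was called in MDPs once tumor-bearing replicate 5 was left out (-1.88, adjusted p = 0.0442). Mx1 was -0.68 to -0.46 in tumor-free and -2.42 to -0.99 in tumor-bearing CDPs (-0.92 ± 0.58, adjusted p = 0.563).

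In MDPs Mx1 was -2.44, -2.45, -2.78 and -2.80 without a tumor and -3.11, -6.69, -4.03 and -3.54 with one. Replicate 3 of the tumor-bearing group was not well above background, and the groups did not overlap (-1.72 ± 0.58, adjusted p = 0.357). Laboratory mouse strains of this background are known to carry a defective Mx1 gene, and the probe measures its RNA alone. Samd9l, a translation inhibitor of the interferon response, was -0.77, -0.83, -0.32 and -0.83 in tumor-free CDPs against -1.48, -2.33, -2.15 and -1.50. These were apart as well (-1.18 ± 0.30, adjusted p = 0.0631, and 0.0154 with the slide as a block). In MDPs the Samd9l groups overlapped (-0.19 ± 0.30, adjusted p = 0.787), and that sign turned with quantile normalization and in the deposited value table.

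Ifitm3, which keeps enveloped viruses from fusing with the cell, ran the other way. It was 4.19, 3.92, 4.17 and 4.07 in tumor-free CDPs and 4.36, 4.26, 4.59 and 4.29 in tumor-bearing CDPs. Every tumor-bearing array was higher, by 0.29 ± 0.12 in the mean, but the adjusted p was 0.299 and the sign turned below 0 with quantile normalization and in the value table. In MDPs it was 3.56 to 3.78 against 3.84 to 3.996, also apart (0.23 ± 0.12, adjusted p = 0.518).

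Gbp3, a guanylate-binding GTPase that attacks membranes of intracellular microbes, was also above 0 in both, by 0.39 ± 0.15 (adjusted p = 0.222) for CDPs and by 0.23 ± 0.15 (adjusted p = 0.564) for MDPs. Gbp2 of the same family differed by -0.96 ± 0.47 in CDPs and -0.47 ± 0.47 in MDPs, and the latter was -0.04 with quantile normalization. Rsad2, which encodes viperin, an enzyme that makes a chain-terminating nucleotide, differed by -0.08 ± 0.27 in CDPs and -0.72 ± 0.30 in MDPs. Its spot on tumor-bearing MDP replicate 5 was an outlier, so that value rests on 3 arrays in that group, and it was -0.27 in the deposited value table.

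**Figure D4:**
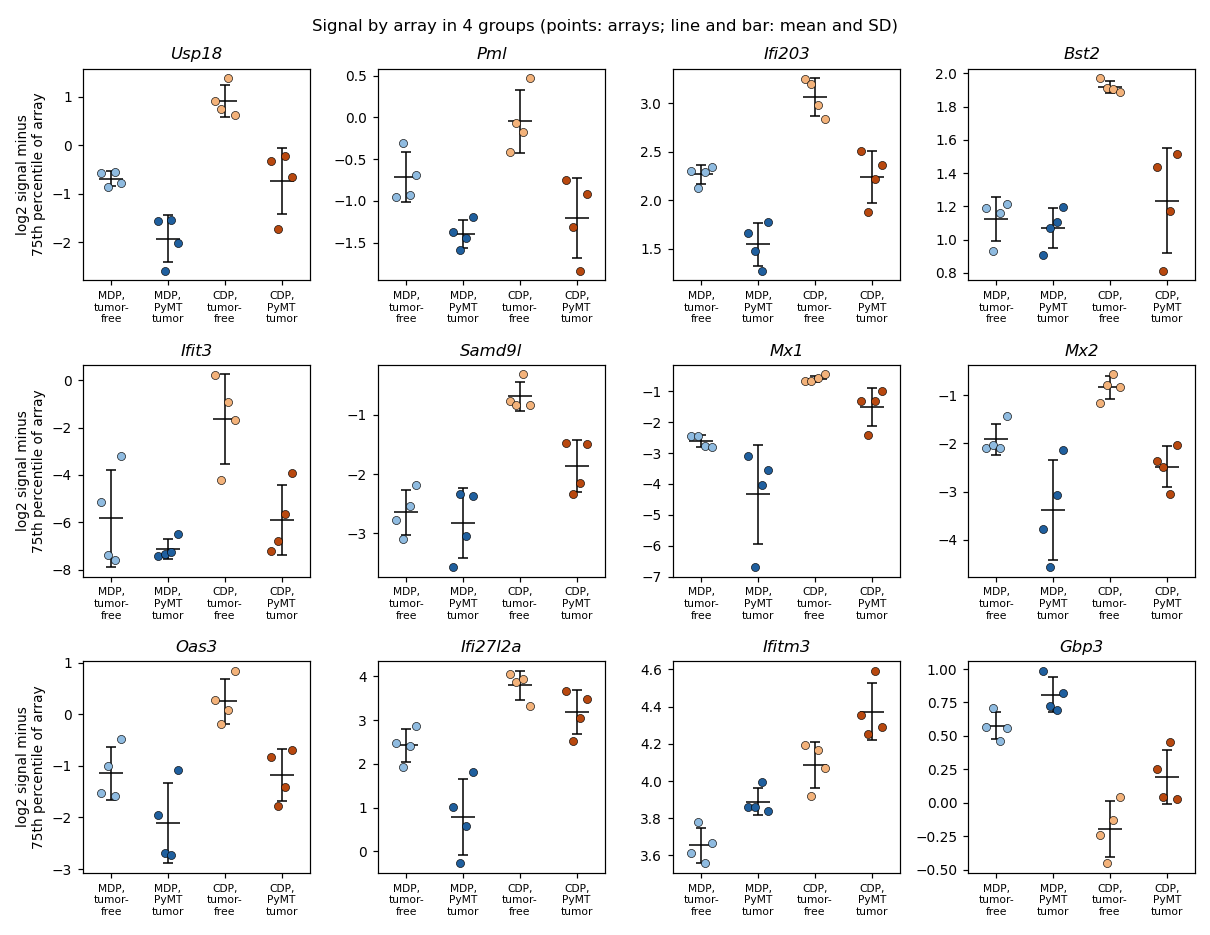
Log2 signal minus the array's 75th percentile (y axis, a separate scale for each gene) of 12 effector genes in the 4 groups (x axis), with a point for each array and the mean and SD as line and bar. Usp18, Pml, Ifi203 and Bst2 have their highest group in tumor-free CDPs (Bst2 1.89 to 1.97), while Ifitm3 is highest in tumor-bearing CDPs and Gbp3 in tumor-bearing MDPs.

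The IFIT proteins bind viral RNA ends or translation factors. Ifit3 was 0.21, -4.23, -0.91 and -1.67 in tumor-free CDPs, all well above background, and -7.19, -6.78, -5.66 and -3.91 in tumor-bearing CDPs, of which 1 was well above background. The groups overlapped through tumor-free replicate 3, and the difference of -4.23 ± 1.04 missed the threshold (adjusted p = 0.0567), while it was -3.86 with the slide as a block (adjusted p = 0.00329). Its size rests on signals near background in the tumor-bearing group, and with normexp background correction it was -2.17. In MDPs Ifit3 was well above background on 1 tumor-free array and on no tumor-bearing array, so no fold is given. Ifit2 differed by -0.57 ± 0.42 in CDPs and -0.49 ± 0.42 in MDPs, the latter being -0.04 with quantile normalization. Ifit1 was well above background on replicate 3 of tumor-free MDPs and replicate 5 of tumor-free CDPs only.

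The OAS enzymes make the short oligoadenylates that switch on RNase L. Oas3 was 0.27, -0.19, 0.08 and 0.85 in tumor-free CDPs and -0.82, -1.77, -1.41 and -0.69 in tumor-bearing CDPs. The groups were apart (-1.43 ± 0.39, adjusted p = 0.0834), and a fit with slides as blocks gave -1.31 (adjusted p = 0.0336). In MDPs it was -1.59 to -0.49 against -2.73 to -1.07, which overlapped (-0.96 ± 0.39, adjusted p = 0.444).

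Oas2 did not overlap in MDPs, at -3.23 to -2.84 against -7.17 to -3.71 (-1.77 ± 0.57, adjusted p = 0.332), and tumor-bearing replicate 4 was the lowest by far. In CDPs the Oas2 difference was -0.23 ± 0.57. Oasl2, of the same family, differed by -1.11 ± 0.53 in CDPs and -1.33 ± 0.53 in MDPs. Oasl1, which is known to hold back translation of Irf7, differed by -0.31 ± 0.31 and -0.60 ± 0.31. Oas1g differed by -1.82 ± 0.82 in MDPs, where 2 tumor-bearing arrays were well above background. The used Oas1a probe (chr5:121326738-121326797) lies beside the Oas1g probes and may read several genes of this cluster. Its difference was -0.08 ± 0.22 in either progenitor, and the signs of Oas1a and Oas1g in CDPs turned with another background correction.

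The role also holds 3 enzymes outside the OAS family. Eif2ak2, which encodes the translation kinase PKR, differed by -0.38 ± 0.27 in CDPs and by -0.38 ± 0.27 in MDPs. Adar, which edits adenosine in double-stranded RNA, differed by -0.29 ± 0.18 and -0.42 ± 0.18. The exonuclease gene Isg20 gave -0.18 ± 0.18 and -0.43 ± 0.18. In all, 9 of 9 genes of the OAS and RNA-enzyme role were below 0 in both progenitors by the used probes, and none was called. In MDPs the other probes of Adar and Oas1a were above 0 (0.11 and 0.05), while those of Isg20 and Oas1g were below 0 (-0.49 and -1.09).

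Of the 7 remaining interferon-induced genes, Cmpk2, Xaf1 and Ifi44 did not overlap between tumor states in either progenitor. Cmpk2, a mitochondrial nucleotide kinase next to Rsad2 in the genome, was 2.09, 1.90, 2.24 and 1.995 in tumor-free CDPs and 1.42, 0.71, 1.61 and 1.80 in tumor-bearing CDPs. All tumor-bearing arrays were lower (-0.67 ± 0.24, adjusted p = 0.205), and MDPs were apart too, at 0.88 to 1.14 against -0.18 to 0.85 (-0.70 ± 0.24, adjusted p = 0.379). Xaf1, a promoter of apoptosis, was apart in CDPs at -0.28 to -0.03 against -1.60 to -0.51 (-0.79 ± 0.26) and in MDPs at -0.81 to -0.41 against -1.93 to -0.83 (-0.83 ± 0.26). Ifi44 was apart in both, by -0.94 ± 0.30 and -1.15 ± 0.30. Rtp4, a chaperone of receptors, was apart in MDPs (-1.49 ± 0.45) and overlapped in CDPs (-1.35 ± 0.45).

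Ifi27l2a, which encodes a small mitochondrial and nuclear membrane protein, was 2.49, 1.93, 2.40 and 2.86 in tumor-free MDPs. Tumor-bearing MDPs gave 1.01, -0.28, 0.58 and 1.82, all lower. The difference was -1.64 ± 0.38 (adjusted p = 0.182), and without tumor-bearing MDP replicate 5 it was called (-1.98, adjusted p = 0.0442). In CDPs the groups overlapped at 3.32 to 4.06 against 2.53 to 3.68 (-0.61 ± 0.38, adjusted p = 0.557). Ifi35 differed by -0.10 ± 0.19 in CDPs and 0.09 ± 0.19 in MDPs. Tor3a, an AAA-ATPase of the endoplasmic reticulum, differed by 0.14 ± 0.13 in CDPs, where the sign turned with quantile normalization, and by 0.18 ± 0.13 in MDPs. Its other probe gave 0.06 in CDPs and -0.33 in MDPs.

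The 2 stages were also compared within each tumor state, which uses the same arrays as the tumor comparisons and is not independent of them. In tumor-free mice, effector genes were mostly higher in CDPs than in MDPs. The CDP minus MDP difference was above 0 for 35 of 41 members with a median of 0.43, while the median of all probes was 0.018. Of the members, 10 were called higher in CDPs, against 2.93% of all probes, and 1 was called lower, against 3.14%. The groups did not overlap for 14 members that were higher in CDPs, against 6.57% of all probes.

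In tumor-bearing mice the difference was above 0 for 34 members with a median of 0.49, against 0.191 for all probes. That median over members was 0.23 with quantile normalization, which brings the median of all probes to about 0. There, 8 members were called higher in CDPs, against 3.53% of all probes, and 1 was called lower, against 3.71%. The groups did not overlap for 9 members that were higher, against 7% of all probes. With the slide as a block, 12 members were called higher in CDPs without a tumor, against 5.26% of all probes, and 8 with one, against 3.49%. The latter median over members was then 0.54 and that of all probes -0.016.

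Usp18, Ifi27l2a, Ifi204, Sp100, Cmpk2 and Ifi203 were called higher in CDPs in both states, which is 6 of the 10 genes called without and 6 of the 8 called with a tumor. Ifi27l2a was 2.60-fold higher in tumor-free mice (1.38 ± 0.38, adjusted p = 0.0453) and 5.29-fold higher in tumor-bearing mice (2.40 ± 0.38, adjusted p = 0.00169). Ifi204 was 2.54-fold higher (1.34 ± 0.24, adjusted p = 0.00369) and 3.07-fold higher (1.62 ± 0.24, adjusted p = 0.00104). Neither gene overlapped between the stages in either state.

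Sp100 was 2.17-fold higher without a tumor (adjusted p = 0.00283) and 2.08-fold higher with one (adjusted p = 0.0043). Usp18 was 3.05-fold higher (adjusted p = 0.00684) and 2.29-fold higher (adjusted p = 0.0332), the latter with overlapping groups. Cmpk2 was 2.04-fold and 2.08-fold higher, and Ifi203 1.74-fold and 1.62-fold higher by its used probe. The other Ifi203 probes gave log2 differences of 0.96, 1.29 and 1.02 without a tumor. With a tumor they gave 0.06, 0.12 and 0.14, and none was called in either state (limma adjusted p 0.0943 to 0.921). Of the calls made in both states, that of Ifi27l2a in tumor-free mice was the least stable when an array was left out. It was lost in 12 of 16 such fits.

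Other calls were made in only 1 of the tumor states, and whether the states differ was tested by the difference of the tumor effects, which called none of them. In tumor-free mice Samd9l was 3.89-fold higher in CDPs (1.96 ± 0.30, adjusted p = 0.0013). The gene's other probe gave 5.10, but it was well above background on only 13 of the 16 arrays. Bst2 was 1.74-fold higher (adjusted p = 0.00602). Oas3 was 2.64-fold higher (adjusted p = 0.0457), a call lost in 11 of the 16 fits without an array. Ifit3 was called higher (4.18 ± 1.04, adjusted p = 0.0273) with 1 of 4 tumor-free MDP arrays well above background and overlapping groups, and its call was lost in 6 of those fits. With normexp background correction the difference was 2.09 and was not called (adjusted p = 0.0792).

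In tumor-bearing mice alone Mx1 was 7.11-fold higher in CDPs (2.83 ± 0.58, adjusted p = 0.00881), with no overlap between the groups. The difference was 2.05 without tumor-bearing MDP replicate 3, which was not well above background, and 1.59 with normexp background correction, and it was called in both. In tumor-free mice its groups were also apart, with a difference of 2.02 ± 0.58 that missed the threshold (adjusted p = 0.0523). Zbp1 was 2.70-fold higher in tumor-bearing mice (1.43 ± 0.28, adjusted p = 0.00655), at 0.18 to 0.76 in CDPs against -1.45 to -0.52 in MDPs. The other Zbp1 probe, well above background on all 16 arrays, gave 0.37 there and was not called (limma adjusted p = 0.381). Ifitm3 had an adjusted p of 0.0494 without and 0.0264 with a tumor, but its folds of 1.35 and 1.40 were under the minimum.

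Gbp3 was the single member called lower in CDPs. In tumor-free mice it was -0.24, -0.45, -0.13 and 0.04 in CDPs and 0.57, 0.71, 0.46 and 0.56 in MDPs, with no overlap, and the fold was 1.70 (-0.77 ± 0.15, adjusted p = 0.00536). In tumor-bearing mice it was 0.25, 0.04, 0.45 and 0.03 against 0.99, 0.72, 0.70 and 0.82, again apart (-0.61 ± 0.15, adjusted p = 0.0197). The latter call was lost without tumor-bearing MDP replicate 2 or CDP replicate 3 or 5, and with the slide as a block (adjusted p = 0.0526).

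**Figure D5:**
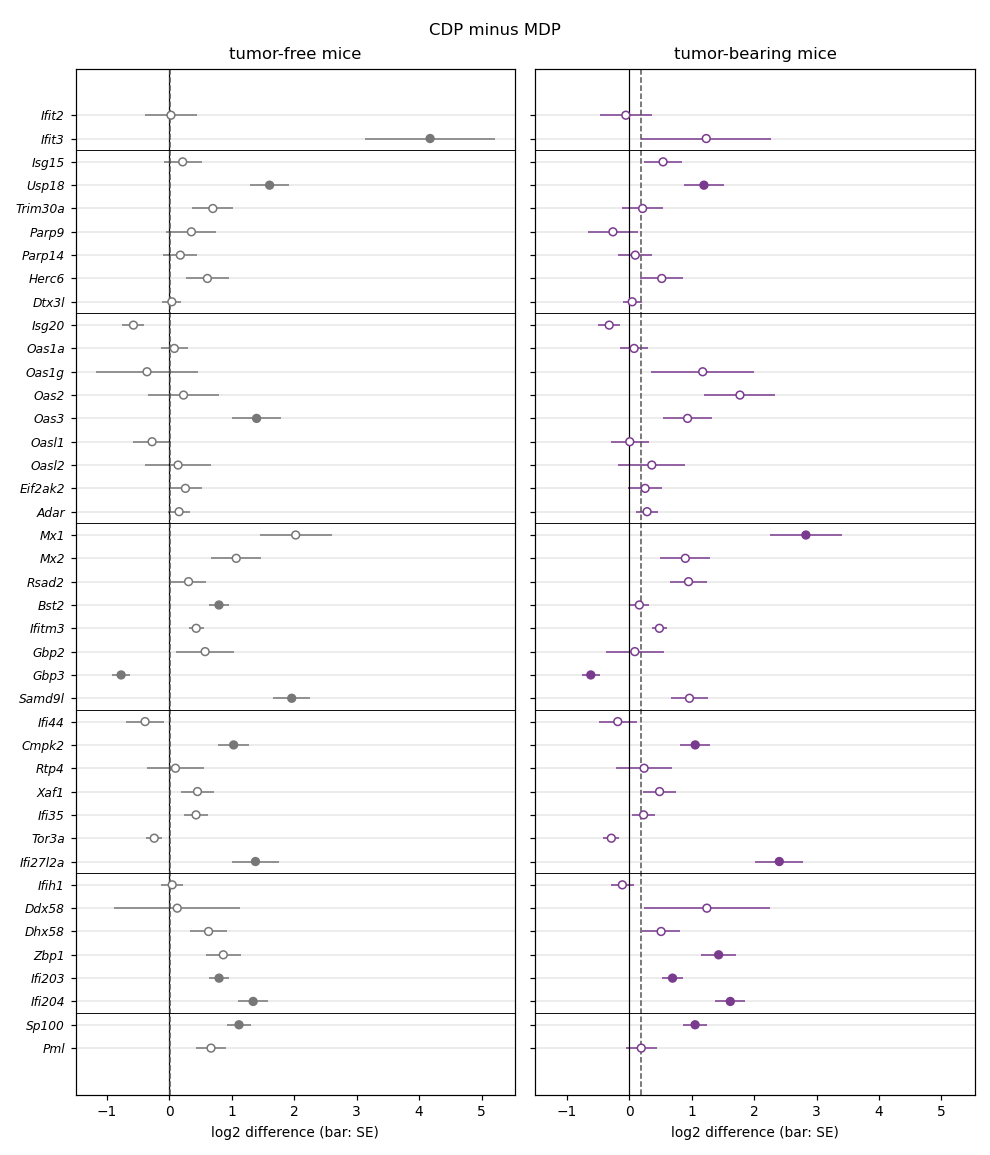
Fitted log2 difference (x axis, bar: SE) between CDPs and MDPs for each of the 41 tested genes (y axis, in blocks by role), in tumor-free mice on the left and tumor-bearing mice on the right, with filled points for called genes and a dashed line at the median of all probes. Most points lie right of 0, Gbp3 is the filled point left of 0 in both panels, and Ifit3 in tumor-bearing mice rests on arrays mostly not well above background.

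The rest of the pathway was read on lists written with the members. Of 8 interferon ligand genes with a probe, 3 were tested, and Ifna4, Ifne and Ifng were well above background on no array. The receptor chains gave no call: Ifnar1 differed by -0.42 ± 0.14 in CDPs (adjusted p = 0.156), Ifnar2 by -0.40 ± 0.20, Ifngr1 by 0.54 ± 0.15 (adjusted p = 0.102) and Ifngr2 by -0.06 ± 0.20. In MDPs the 4 chains differed by -0.10, 0.06, 0.33 and 0.04.

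Of 12 signaling kinases and factors, 11 were below 0 in CDPs and 10 in MDPs, and none was called. Stat2 did not overlap between the CDP groups, at -0.35 to 0.92 without a tumor against -1.21 to -0.71 with one (-1.13 ± 0.28, adjusted p = 0.061, and 0.0037 with the slide as a block). Irf9, its partner in the complex that binds the ISRE, differed by -0.59 ± 0.26 with no overlap (adjusted p = 0.343). In MDPs the differences of Stat2 and Irf9 were -0.33 ± 0.28 and -0.36 ± 0.26.

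Irf7, the factor that amplifies interferon production, was -0.37 to 0.25 in tumor-free CDPs and -1.50 to -1.16 in tumor-bearing CDPs (-1.37 ± 0.61, adjusted p = 0.335). In MDPs it was -3.05 to -2.40 against -7.07 to -3.11, and 2 of the tumor-bearing arrays were not well above background (-2.23 ± 0.61, adjusted p = 0.265). Both comparisons were without overlap. Irf7 was higher in CDPs than in MDPs in both states, by 2.80 (adjusted p = 0.0131) and 3.66 (adjusted p = 0.00246). Irf1 and Irf8 differed by -0.36 ± 0.16 and -0.02 ± 0.24 in CDPs and by -0.13 ± 0.16 and -0.13 ± 0.24 in MDPs.

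Some interferon-linked genes outside the set rose in CDPs. Socs3, an inhibitor of cytokine receptor signaling that many cytokines induce, rose 10.4-fold (3.38 ± 0.55, adjusted p = 0.0084). Ifitm1, a neighbor of Ifitm3, rose 4.81-fold (2.27 ± 0.26, adjusted p = 0.00096), from 1.19 to 1.99 in tumor-free to 3.41 to 4.25 in tumor-bearing CDPs. Ikbke, a kinase upstream of interferon genes, rose 1.77-fold (adjusted p = 0.0161). Of 37 further interferon-induced genes tested, 20 were below and 17 above 0 in CDPs, with a median of -0.03. In MDPs 23 were below and 14 above 0, with a median of -0.175. Of all probes, 42.3% were below 0 in CDPs (median 0.077) and 60.2% in MDPs (median -0.115). Of this list, Irgm1, an immunity-related GTPase, and Uba7, the enzyme that activates ISG15, fell in CDPs. The falls were 1.85-fold (adjusted p = 0.0485) and 1.71-fold (adjusted p = 0.0299). No gene of these lists was called in MDPs.

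Markers of other cell types moved with the tumor state as well. The summed linear level of 9 neutrophil markers, relative to the array's 75th percentile, was 4.12 to 11.1 in tumor-free and 14.4 to 26.8 in tumor-bearing CDPs, and 2.31 to 5.48 and 8.60 to 17.99 in MDPs. All 9 were well above background on some array of each group. Lcn2 rose in both (6.50-fold in CDPs and 4.49-fold in MDPs) and Mmp8 in CDPs (3.65-fold). Of the 9, 4 were below 0 in CDPs and 4 in MDPs, not all of them the same. All 8 monocyte and macrophage markers were above 0 in CDPs, and Ms4a3 rose 4.57-fold. That sum was 31.99 to 41.96 against 46.5 to 55.2 in CDPs, and it overlapped in MDPs at 33.3 to 41.3 against 36.3 to 51.4.

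Of 6 tested conventional dendritic cell markers, 5 were below 0 in CDPs and 5 in MDPs, but not the same 5. Batf3 was below 0 in CDPs and above 0 in MDPs. The sum over the list was 10.4 to 12.5 against 6.11 to 8.38 in CDPs and 4.57 to 4.74 against 3.58 to 4.43 in MDPs. Cd209a fell 9.51-fold in CDPs and at least 2.84-fold in MDPs (adjusted p = 0.0114), where no tumor-bearing array was well above background, and Xcr1 was well above background on no array. Of 8 plasmacytoid dendritic cell markers, 5 were below 0 in CDPs and 6 in MDPs, Runx2 fell 7.80-fold in CDPs, and the sums overlapped (13.7 to 30.3 against 19.02 to 40.1 in CDPs). Kit fell 2.54-fold in CDPs (adjusted p = 0.0044) and differed by -0.12 in MDPs. All 5 tested erythroid markers were below 0 in either progenitor, and their sums overlapped in both, at 2.60 to 11.1 against 1.77 to 3.996 in CDPs and 2.33 to 5.36 against 1.93 to 2.40 in MDPs. No B cell, T and NK cell or mammary tumor cell marker was called, and Ms4a1 and Cdh1 were well above background on no array.

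Between the stages, the sum over T and NK cell markers was 13.6 to 17.98 in MDPs and 1.77 to 3.28 in CDPs, and that over conventional dendritic cell markers was higher in CDPs. Nkg7, a granule membrane protein of cytotoxic cells, was the single T and NK cell marker called. It was 3.67 to 4.15 in MDPs and 0.30 to 1.33 in CDPs, and made up most of the T and NK cell sum. Of the 5 tested markers, 3 were above 0 in CDP minus MDP without a tumor (median 0.01) and 4 with one (median 0.37). The part of these marker differences, and of the fall of Kit in CDPs, in the effector gene differences was not tested.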

How the data were processed

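RNA was hybridized to 16 one-color (Cy5) Agilent arrays, 1 per sample. The deposited Feature Extraction 11.5.1.1 tables give processed spot intensities that, per the file headers, the authors' scanner software had background-subtracted and detrended. The authors also deposited a table of log2 values for 26793 probes, which correlated with each array (r of at least 0.99982, column medians 10.224 to 10.327). It served as an alternative. The submitters' processing notes name limma, and the study's methods name the thresholds used here.

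Control spots and 182 to 289 outlier spots per array were left out, and log2 processed signals were centered on each array's 75th percentile. A probe was tested if 3 or more arrays of any group measured it well above background (27433). A fit of 4 group means used limma 3.58.1 in R 4.3.3, with a spread shared by all groups, and was checked on simulated data. Quantile normalization moved the median difference of all probes by over 0.1 in MDPs (from -0.115 to 0.001), between stages in tumor-bearing mice (from 0.191 to -0.003) and for the difference of tumor effects (from 0.151 to -0.004).

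The members, lists and rules were chosen with earlier results of these data known. Named with values were members called in any comparison, the 8 with the largest rises and falls in each, members not tested, genes of other lists called in a tumor comparison, and the receptor chains with Stat2, Irf1, Irf7, Irf8 and Irf9. For the stages and the difference of the tumor effects, some of those 8 are given by tumor differences only. Some genes of the other lists are not reported here. Precision is limited by 4 arrays a group. Alternatives changed the background correction, scaling, filter, probe choice, blocks and test, and left out each array. Replicate numbers were not used to pair the samples: of 24 same-numbered pairs, 8 had correlated deviations above 0.1 (lowest -0.695). Those deviations still held the slide differences, so they cannot show whether same-numbered samples came from the same mice.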

Additional observations from a re-analysis of the deposited data

Results flagged for a closer look

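Of 163 groups of 4 arrays examined across the tested members, 10 held an array whose gap to its nearest neighbor, as a share of the group's range, exceeded Dixon's 95% critical value, and chance does so in about 1 group in 20. Of these, 5 lay below the other arrays. Ifit2 was -6.11 on tumor-bearing CDP replicate 4, against -3.92 to -3.78 on the others. Oas2 was -7.17 on tumor-bearing MDP replicate 4, against -4.29 to -3.71. Ifi35 was -0.42 on tumor-free CDP replicate 5, against -0.11 to -0.05, and Ifi204 was 1.32 on the same array, against 1.81 to 1.88. Eif2ak2 was -1.09 on tumor-free MDP replicate 4, against -0.54 to -0.45.

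The other 5 lay above. Ifit3 was -6.47 on tumor-bearing MDP replicate 5, against -7.41 to -7.26, and none of these arrays was well above background. Mx2 was -1.44 on tumor-free MDP replicate 5, against -2.10 to -2.03. Oas2 was -2.44 on tumor-bearing CDP replicate 2, against -3.24 to -3.16. Ifitm3 was 3.996 on tumor-bearing MDP replicate 4, against 3.84 to 3.86, and Samd9l was -0.32 on tumor-free CDP replicate 4, against -0.83 to -0.77.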

How the results depend on the processing

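Of the 41 tested members, 4 were called lower in CDPs with a tumor. That count was 9 with the slide as a block, 0 in a fit to those 8 arrays alone, and, by the methods' t-test, 14 before (7.55% of all probes) and 0 after Benjamini-Hochberg adjustment. It ran from 1 to 6 when an array was left out, at 1 without tumor-free CDP replicate 2 or 4 or tumor-bearing CDP replicate 3 or 4, and at 2 without tumor-free CDP replicate 3 or 5. In MDPs the count of 0 became 10 by the unadjusted t-test (3.7% of all probes) and ran from 0 to 2 (Mx2 and Ifi27l2a, without tumor-bearing MDP replicate 5). Between the stages, the 11 calls in tumor-free mice became 17 by the unadjusted t-test (10.9%) and 7 to 12 with an array left out (7 without tumor-free MDP replicate 3 or CDP replicate 4). The 9 in tumor-bearing mice became 3 in a fit to those arrays, 1 by the adjusted t-test and 5 to 13 with an array left out (5 without tumor-bearing CDP replicate 5), and their median of 0.49 became 0.228 with quantile normalization and 0.225 in the value table. Same-numbered samples are linked in the labels by the number alone. A replicate block gave 5 calls for the tumor effect in CDPs, 0 in MDPs and 0 for their difference. For the stages it gave 12 calls without and 10 with a tumor. Each array correlated best with its own number in 4 of 16 cases. The causes were not tested. Over 24 single results, 532 alternative values stayed on their side of the threshold, 90 of called results did not pass it, and 0 changed sign. All 24 were calls of the main fit, so a change of sign was unlikely from the outset. Of all 41 members, the sign turned under at least 1 of 5 settings for 5 in the CDP tumor effect and 2 in the MDP one. It turned for 17 in their difference, and between stages for 4 without and 8 with a tumor.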
